A study of Mus musculus with 30 samples.

Results

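The 6 RNA-seq libraries described here compare *Mbd3* KO with wild type (WT) neuronal progenitor cells (NPCs) at day 8 of differentiation, with 3 libraries per genotype. Their columns were picked by the group each is named for, and they are 6 of the 24 RNA-seq libraries and of the 30 samples of the series. WT are NPCs made from the mouse ESC line HA36CB1, a hybrid of 129 and C57BL/6 in which *Mbd3* was not edited. The study's methods describe HA36CB1 cells that carry a biotin ligase (BirA) and a site for inserting constructs by recombinase, and do not say for WT and *Mbd3* KO separately whether they do. *Mbd3* KO are NPCs from the same ESC line in which Cas9 and a pair of guide RNAs cut exons 2 and 3 of *Mbd3*. The genotype labels name no other allele or construct in either group. Per the study each of the 6 libraries stands for an individually derived clone. The columns carry library numbers (s01, s02 and s03 for WT, and s04, s05 and s06 for *Mbd3* KO) but no replicate numbers, and the labels do not say whether cultures were separate. The p-values measure only the spread between libraries, which in these 6 is, per the study, between clones. Whether it also covers separate differentiations is not given. That spread was estimated over all 24 libraries, in which the 3 MBD2t libraries come, per the study, from 1 clone. Values below are always given in the order s01 to s03 and s04 to s06, as CPM, read counts scaled to a common library total with a correction for composition.

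MBD3 is a core subunit of the NuRD complex, which joins the histone deacetylases HDAC1 and HDAC2 with the CHD ATPases that move nucleosomes. MBD3 and its relative MBD2 occupy the same position in the complex and exclude each other, and the MTA, GATAD2 and RBBP proteins complete it. ESCs that lack MBD3 renew themselves but leave the pluripotent state poorly. The differentiation used here takes ESCs through cell aggregates and retinoic acid to progenitors of a radial glial type that go on to form neurons.

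The libraries held between 34446766 and 42049423 counted reads, and 3 reads correspond to between 0.0664 and 0.0858 CPM, which covers counting error only. Within each group 1 library stood apart. WT library s03 correlated with the other WT libraries at r = 0.963 and 0.973 over log2 CPM, while s01 and s02 correlated at 0.989. In *Mbd3* KO, s04 correlated with the other libraries at 0.970 and 0.964, while s05 and s06 correlated at 0.994. Among the 12923 genes whose mean log2 CPM was 1 or more, 1132 were more than 1 log2 unit from the mean of the other WT libraries in s03 and 1039 were so in s04, against between 114 and 578 in the remaining 4 libraries. Results that rest on s03 or s04 are given below with and without them.

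*Mbd3* (chromosome 10, 79855284 to 79862295, minus strand, NCBIM37) is given first, since it checks the labels. The targeted exons are shown because they define the knockout; they come from the NCBIM37 genome, are written 5′ to 3′ on the coding strand in lower case, and belong to the transcript Mbd3-001:
exon 2, chr10:79858181-79858340 (160 bases): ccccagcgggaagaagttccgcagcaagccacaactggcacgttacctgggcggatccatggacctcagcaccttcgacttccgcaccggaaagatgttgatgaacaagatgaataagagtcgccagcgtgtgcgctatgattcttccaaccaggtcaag
exon 3, chr10:79857809-79857946 (138 bases): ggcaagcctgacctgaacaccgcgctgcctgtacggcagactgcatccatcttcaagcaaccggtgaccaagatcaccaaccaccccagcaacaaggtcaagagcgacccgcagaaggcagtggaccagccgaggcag
*Mbd3* stood at 155, 149 and 157 CPM in WT and at 34.2, 73.8 and 69.1 CPM in *Mbd3* KO. All 3 KO libraries lay below all WT libraries, with s04 lowest. Reads are counted over the whole gene, so a transcript that keeps its other exons is still counted, and the deposited counts do not show the edited exons themselves.

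*Mbd3* fell by 1.38 on the log2 scale (SE 0.274, adjusted p = 0.000283), and other NuRD subunits moved in both directions. Of the 16 subunit genes, all tested, 2 were called higher and 2 lower, *Mbd3* among them (median log2 fold change -0.25), where 33.8% of all 16582 genes tested were called in either direction (19.6% higher, 14.2% lower). A gene was called where edgeR's quasi-likelihood test gave a Benjamini-Hochberg adjusted p under 0.05 over all genes tested and the log2 fold change was above 1 in size. Below, a number without unit in parentheses after a gene is its log2 fold change. The number called in each list below is to be read beside the shares of all genes, 19.6% higher and 14.2% lower. *Hdac2*, a deacetylase of the complex, had 315, 281 and 238 CPM in WT and 112, 126 and 118 CPM in *Mbd3* KO, a log2 fold change of -1.23 (SE 0.132, adjusted p = 6.02e-07). *Hdac1* was not called (0.26). *Mta3*, whose protein is one of the alternative MTA scaffolds, had 31.2, 42.6 and 39.9 CPM in WT and 174, 120.1 and 116 CPM in *Mbd3* KO, and rose by 1.85 (SE 0.233, adjusted p = 3.11e-06), while *Mta1* and *Mta2* had log2 fold changes of -0.59 and -0.40 and were not called. *Chd5*, the CHD ATPase known from neurons, also rose (1.67, SE 0.319, adjusted p = 0.000192), while *Chd4* and *Chd3* were not called (-0.39 and -0.11). *Mbd2* had 40.8, 50.4 and 43.8 CPM in WT and 65.3, 64.2 and 70.9 CPM in *Mbd3* KO. Its groups did not overlap, but its log2 fold change of 0.57 (SE 0.212) was under the threshold (adjusted p = 0.0263).

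Across all genes, 3248 were called higher and 2361 lower in *Mbd3* KO, and the median log2 fold change over all 16582 genes was -0.03. Rises were found mostly at genes that were low in WT. Of the 1270 genes with a mean WT level under 0.1 RPKM (CPM per kilobase of exon), 67.5% were called higher. That share was 40.1% from 0.1 to 1 RPKM, 16.3% from 1 to 10, 3.72% from 10 to 100 and 0.786% above 100. The filter on low counts looks at all lines, so that many genes this low in WT pass it only through a line where they are higher, which raises the share in the lowest class. The share called lower was 2.91% in the lowest class and 15.5%, 16.1%, 14.3% and 12.1% in the 4 upper classes, in the same order. In 501 genes all WT libraries lay under 1 CPM and all KO libraries at 1 CPM or more, and in 241 genes the reverse held. The groups did not overlap in 62.2% of all genes tested. Some of the genes named below share their exons' positions with another gene model, and because the strand setting of the counting is not given, reads of such partners may be mixed. The partner lies on the opposite strand for *Actl6a*, *Angpt1*, *Axin2*, *Bmp4*, *Bmp8b*, *Ccnd1*, *Cgas*, *Chd3*, *Chd5*, *Col1a1*, *Col4a1*, *Csf1r*, *Ctsb*, *Cxcl10*, *Ddit3*, *Dll1*, *Dnmt3a*, *Dnmt3l*, *Esrp1*, *Esrp2*, *Gata6*, *Gli1*, *Hes5*, *Id4*, *Igf2*, *Irf1*, *Irf3*, *Irf7*, *Jak1*, *Map2*, *Meg3*, *Neurog3*, *Nnat*, *Notch1*, *Pax6*, *Psmb8*, *Ptbp1*, *Shh*, *Six3*, *Srrm4*, *Sycp3*, *Tagln*, *Tfap2a*, *Ttr*, *Vxn*, *Wnt11* and *Zeb2*, and on the same strand for *Foxd3*, *Fzd10*, *H19*, *Hoxb4*, *Ifnar2*, *Irf9*, *Meg3*, *Scd2*, *Tapbp*, *Zbtb38* and *Zeb2*.

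**Figure D1:**
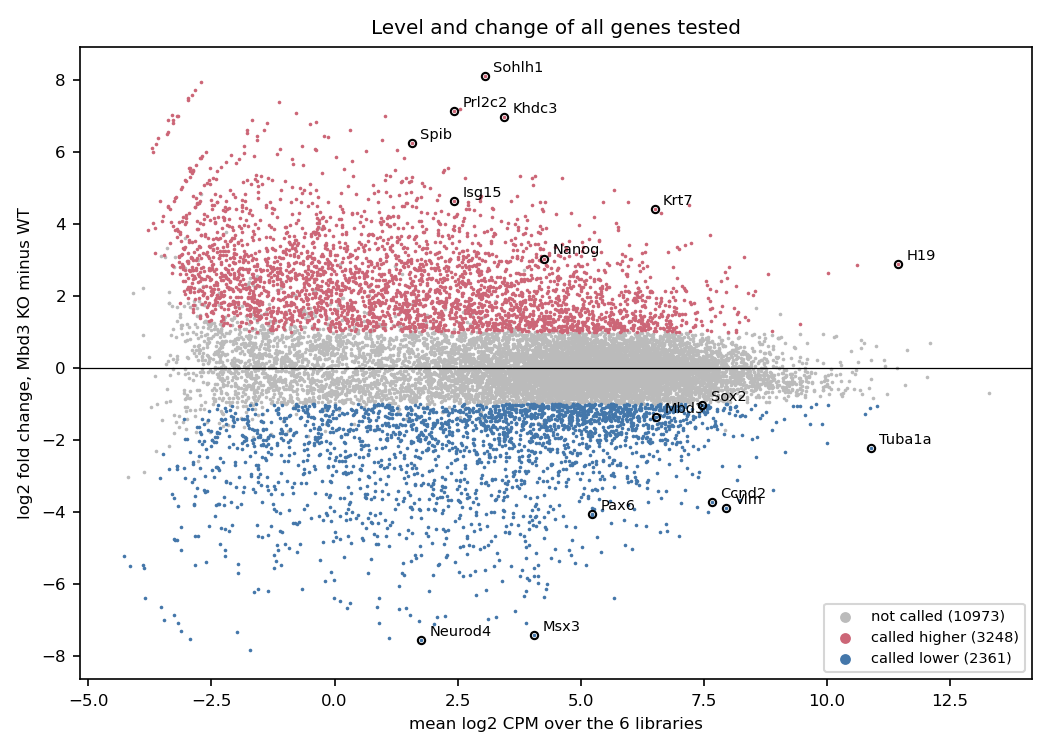
Mean log2 CPM over the 6 libraries (horizontal) against the log2 fold change of *Mbd3* KO over WT (vertical) for each of the 16582 genes tested; red points are the 3248 genes called higher, blue points the 2361 called lower, grey points the rest. Red points are densest at low levels, and *Sohlh1* lies highest among the labelled genes, at 8.12, and *Neurod4* lowest, at -7.56.

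Genes of the neural lineage were lower in *Mbd3* KO, from progenitors to neurons. The labels call both groups neural progenitors. Beside each result below, fewer cells of a type and less RNA per cell cannot be told apart in bulk RNA. Of 22 transcription factors of neural progenitors tested, 16 were called lower and none higher, with a median log2 fold change of -1.95 (1 was called higher without s01 or without s04). *Pax6*, a factor that sets progenitor identity, had 142, 168 and 197 CPM in WT and 3.52, 12.2 and 14.2 CPM in *Mbd3* KO (log2 fold change -4.08, SE 0.487, adjusted p = 1.82e-06). *Sox3*, which holds progenitors in cycle, had 278, 239 and 276 CPM in WT and 16.1, 19.7 and 16.8 CPM in *Mbd3* KO (-3.91, SE 0.271, adjusted p = 6.75e-09). In both genes the KO libraries lay far below every WT library. *Hes5*, an effector of Notch, showed the largest fall of the list, from 87.8, 99.6 and 135 CPM to 0.743, 0.93 and 0.952 CPM (-6.93, SE 0.469, adjusted p = 5.69e-09). The 6 genes not called were *Hes1* (-0.63) and 5 factors that are best known from other regions, such as *Six3* (0.62) and *Emx2* (1.17) of the forebrain.

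Radial glia are the elongated progenitors of the neural tube. Of 15 of their markers 12 were called lower and none higher (median -1.98), with log2 fold changes of up to 1.57. With DESeq2, and with only the 6 libraries in the fit, 1 was called higher. The intermediate filament genes *Vim* and *Nes* both fell. *Vim* had 1176, 1021 and 967 CPM in WT and 21.8, 98.1 and 92.7 CPM in *Mbd3* KO (-3.89, SE 0.459, adjusted p = 1.59e-06), with s04 below the other KO libraries. *Nes* had 340.2, 289.6 and 215 CPM in WT and 58.9, 89.5 and 77.4 CPM in *Mbd3* KO (-1.9, SE 0.217, adjusted p = 1.14e-06). *Fabp7*, a fatty acid binding protein of radial glia, went from 65.7, 41.3 and 35.7 CPM to 0.343, 0.376 and 0.291 CPM, the largest fall of the list (-7.12, SE 0.623, adjusted p = 8.21e-08).

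Factors that start neurogenesis had the lowest median of the neural lists. Of 23 proneural and neurogenic genes 21 were called lower and none higher (median -4.9), and the exceptions were *Neurod2* (-1.61) and *Neurog3* (0.12). *Neurog2*, a bHLH factor that commits progenitors to neurons, had 48.3, 75.4 and 33 CPM in WT and 0.343, 0.465 and 0.476 CPM in *Mbd3* KO (-6.91, SE 0.556, adjusted p = 3.53e-08). *Neurog1* had 125, 176 and 100.3 CPM in WT and 1.03, 1.86 and 1.96 CPM in *Mbd3* KO (-6.35). The groups were far apart for both genes, and s04 was the lowest library of each. Of 26 genes of postmitotic neurons 25 were called lower and none higher (median -4.26, or -4.08 with *Slc17a6*, which had no read in *Mbd3* KO, set to the level of 3 reads per library). *Isl1* was the one not called (-0.56).

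Neuron genes varied within both groups. *Dcx*, which stabilises microtubules in young neurons, had 443, 395 and 108 CPM in WT and 1.32, 21.9 and 24.5 CPM in *Mbd3* KO (-4.3, SE 0.855, adjusted p = 0.000283). *Map2*, a dendrite protein, had 725, 644 and 237 CPM in WT and 9.38, 25.8 and 32.5 CPM in *Mbd3* KO (-4.57, SE 0.582, adjusted p = 3.45e-06). WT library s03 lay below s01 and s02 in each, and KO library s04 below s05 and s06. Averaged over the 26 neuron genes, log2 CPM relative to the WT mean was 0.56, 0.32 and -0.88 in WT and -4.99, -3.50 and -3.20 in *Mbd3* KO. Without s03 and s04, 25 of the 26 were called lower, with a median of -4.16.

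**Figure D2:**
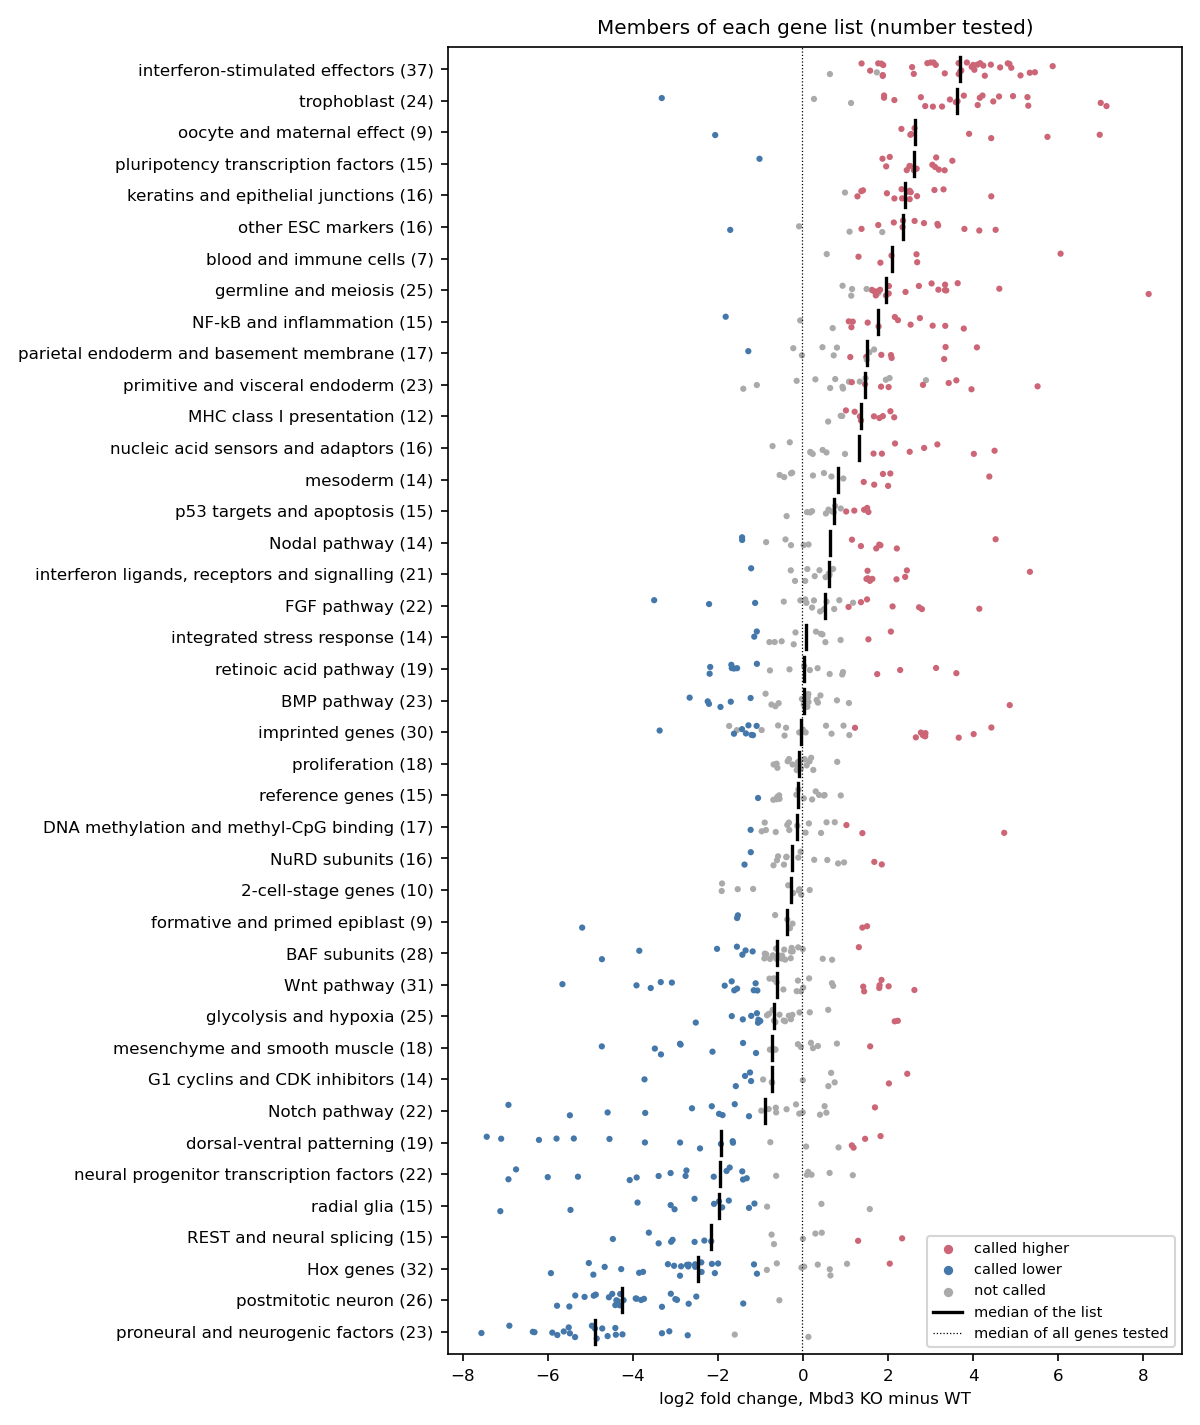
Log2 fold change of *Mbd3* KO over WT (horizontal) for the tested members of each of the 41 gene lists (vertical, ordered by median; number tested in brackets); each point is a gene, red if called higher, blue if called lower, grey if not called, the black bar is the median of the list and the dotted line the median of all genes tested. Proneural and neuron genes sit lowest, with medians of -4.9 and -4.26, and interferon-stimulated effectors and trophoblast genes highest, with 3.69 and 3.61.

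Genes that give neural progenitors their position were lower as well. Of 19 dorsal-ventral patterning genes 12 were called lower and 4 higher (median log2 fold change -1.93). The lower ones were led by the dorsal factors *Msx3* (289, 219.8 and 150.3 CPM in WT, 1.34, 1.28 and 1.16 CPM in *Mbd3* KO, -7.44, SE 0.584, adjusted p = 2.71e-08) and *Pax3* (-7.1, SE 0.569, adjusted p = 3.28e-08). *Pax7* (-5.39) and *Lhx5* (-5.8) also fell. The 4 called higher were *Gli1* (1.82), a target of Hedgehog signalling, *Foxa2* (1.46), *Nkx2-9* (1.19) and *Lmx1a* (1.15), while *Shh* itself was not called (-0.77). With 1 library left out, between 1 and 4 of these 19 genes were called higher, and *Gli1* was the one that kept its call without s01 and without s05. The value of *Lmx1a* in s04 (2.72 CPM) lay within the WT range.

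Hox genes encode position along the body axis. Of 38 counted 32 passed the filter on low counts, 23 of which were called lower and 1 higher (median -2.47). *Hoxb1* was not called (0.63). *Hoxb4*, which marks a more posterior position, had 245, 249 and 242 CPM in WT and 18.7, 51.7 and 56.3 CPM in *Mbd3* KO (-2.54, SE 0.3, adjusted p = 1.63e-06), and the largest fall was that of *Hoxa6*, with 121, 109.7 and 46.7 CPM and 0.515, 1.84 and 2.12 CPM (-5.93, SE 0.7, adjusted p = 1.62e-06). KO library s04 was the lowest for *Hoxb4* and *Hoxa6*. The only call in the other direction, *Hoxa13* (2.04, 0.8, 0.177 and 0.185 CPM in *Mbd3* KO), was lost without s01 (adjusted p = 0.071) or s04 (adjusted p = 0.275).

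The retinoic acid pathway changed in both directions. Of 19 genes 7 were called lower and 4 higher (median log2 fold change 0.03). The receptor gene *Rarb*, itself a target of the pathway, had 342, 327 and 208 CPM in WT and 46.5, 73.1 and 71.3 CPM in *Mbd3* KO (-2.2, SE 0.288, adjusted p = 4.54e-06). The binding protein genes *Crabp1* and *Crabp2* fell by 2.18 and 1.68. *Cyp26a1*, which encodes the enzyme that degrades retinoic acid and is induced by it, had 409, 375 and 488 CPM in WT and 361, 479 and 456 CPM in *Mbd3* KO, and the groups overlapped (0.03). *Stra8*, a retinoic acid target known from meiosis, had 32.4, 109 and 333 CPM in WT and 662, 892 and 752 CPM in *Mbd3* KO (2.28, SE 0.826, adjusted p = 0.0229). It varied widely within WT, and the call was lost without s01 or s02 (adjusted p = 0.0837 and 0.0762). *Aldh1a2*, whose enzyme makes retinoic acid, was the gene of the list that differed most between the KO libraries, with 11.3, 11.4 and 5.92 CPM in WT and 6.43, 116 and 128 CPM in *Mbd3* KO. Its value in s04 lay within the WT range and the values in s05 and s06 were more than 10 times the highest WT value. *Rbp4*, a retinol carrier of endoderm, had the largest rise of the list (3.6, SE 1.14, adjusted p = 0.0109).

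The Notch, Wnt and BMP pathways pattern and maintain neural progenitors. In the Notch pathway 10 of 22 genes were called lower and 1, *Heyl*, higher (median log2 fold change -0.9). The ligand gene *Dll1* had 144, 115 and 97.9 CPM in WT and 2.03, 2.85 and 3.04 CPM in *Mbd3* KO (-5.48, SE 0.375, adjusted p = 6.19e-09), the receptor gene *Notch1* fell by 1.98, and the nuclear effector *Rbpj* was not called (-0.17). In the Wnt pathway 12 of 31 were called lower and 7 higher (median log2 fold change -0.62). The dorsal ligand *Wnt1* fell by 5.66, the receptors *Fzd10* and *Fzd3* by 3.09 and 3.58 and the target *Axin2* by 1.08, while *Wnt11* (1.41) rose. *Wnt6* was also called higher (1.84), through s05 and s06, with s04 below every WT library (5.34, 7.62 and 7.04 CPM in WT, 5.2, 31.9 and 34.5 CPM in *Mbd3* KO). In the BMP pathway 6 of 23 were called lower, among them the antagonist *Nog* (-2.67) and the target genes *Id3* (-2.24), *Id4* (-1.7) and *Id2* (-1.23), and 1 higher, the ligand *Bmp8b* (4.86), with a median of 0.02. *Bmp4* (0.32) and the target gene *Id1* (0.10) were not called, and the groups overlapped in both. Of the BMP list 30.4% were called in either direction, under the 33.8% of all genes tested.

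In the FGF pathway 7 of 22 genes were called higher (between 4 and 7 with 1 library left out) and 3 lower (median log2 fold change 0.52). *Fgf4*, the ligand that ESCs make, had 0.0537, 0.11 and 0.852 CPM in WT and 11.6, 4.82 and 2.64 CPM in *Mbd3* KO (4.14, SE 0.776, adjusted p = 0.000137). The targets *Etv5* (2.79) and *Spry4* (2.1) rose, and *Spry2* (0.21) and *Dusp6* (-0.06) were not called. The receptor gene *Fgfr3*, expressed in ventricular zone progenitors, fell from 117, 129 and 92.9 CPM to 7.35, 10.6 and 11.8 CPM (-3.5, SE 0.252, adjusted p = 1e-08). In the Nodal pathway, which is active in the early embryo, 7 of 14 genes were called higher and 2 lower (median log2 fold change 0.64). *Nodal* had 1.88, 2.67 and 7.64 CPM in WT and 27.2, 18.2 and 11.4 CPM in *Mbd3* KO (2.2, SE 0.562, adjusted p = 0.00242). The feedback inhibitors *Lefty1* and *Lefty2* rose by 1.82 and 1.36, and both calls were lost without s04 (adjusted p = 0.0996 and 0.222, edgeR), that of *Lefty2* also without s01, s02, s03 or s05 (adjusted p from 0.0643 to 0.116). With 1 library left out, between 3 and 7 genes of the Nodal list were called higher. The coreceptor gene *Tdgf1* rose from 0.456, 1.24 and 3.04 CPM to 59.3, 27.9 and 24.3 CPM (4.53, SE 0.671, adjusted p = 1.59e-05).

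Pluripotency genes were higher in *Mbd3* KO. Of 15 transcription factors of the pluripotent state 14 were called higher (median 2.61), and *Sox2*, which neural progenitors also express, was called lower. *Pou5f1*, the core factor OCT4, had 5.26, 7.15 and 38.7 CPM in WT and 176, 95.3 and 55 CPM in *Mbd3* KO (2.67, SE 0.781, adjusted p = 0.00645). *Esrrb*, a factor of naive ESCs, had 7.27, 7.56 and 10.9 CPM in WT and 128, 65.3 and 32 CPM in *Mbd3* KO (3.13, SE 0.57, adjusted p = 0.000125). *Klf4* had 5.99, 9.19 and 7.6 CPM in WT and 44.5, 41.2 and 44.2 CPM in *Mbd3* KO (2.51, SE 0.662, adjusted p = 0.00308). In *Pou5f1* and *Esrrb* s04 was highest and s06 lowest of the KO libraries, and in *Klf4* the 3 were alike. *Sox2* had 277, 264 and 266 CPM in WT and 218, 114 and 64.5 CPM in *Mbd3* KO (-1.03, SE 0.303, adjusted p = 0.00698), with the KO libraries in the same order as for *Pou5f1*. Its change fell short of 1 log2 unit without s05 or s06 (-0.93 and -0.70), with each other scaling (-0.90 with library size only) and with DESeq2, and its call was also lost with only the 6 libraries in the fit.

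WT library s03 carried more of these transcripts than s01 and s02. *Nanog* had 0.805, 3.33 and 30.7 CPM in WT and 164, 84.3 and 40.3 CPM in *Mbd3* KO (3.04, SE 1.15, adjusted p = 0.0288), and *Zfp42* had 1.29, 3.52 and 19.7 CPM and 158, 75.6 and 47.8 CPM (3.51, SE 0.949, adjusted p = 0.00375). Both were lowest in s01 and highest in s04, with s03 just under the lowest KO library for *Nanog*. The call of *Nanog* was lost without s01, s02 or s04 (adjusted p = 0.0918, 0.097 and 0.0986) and held without s03 (adjusted p = 0.00286). The median over the 15 factors was 3.34 without s03, 2.36 without s04 and 2.98 without both, with 14, 13 and 14 called higher. Of 16 other ESC markers 12 were called higher and 1, *Lin28b*, lower, and the median of 2.34 became 4.38 without s03. *Dppa5a* had 1.56, 5.25 and 57.9 CPM in WT and 261, 137 and 68.2 CPM in *Mbd3* KO, and its call (adjusted p = 0.0443) was lost without s01, s02, s04 or s05 (adjusted p from 0.0605 to 0.135, edgeR). The number of these markers called higher was between 7 and 14 with 1 library left out. Of 9 markers of the formative and primed stages that follow, 2 were called higher and 3 lower (median -0.37). *Dnmt3b* (1.39) and *Fgf5* (1.5, with s04 within the WT range) rose, *Foxd3* (-5.2), *Zic2* (-1.53) and *Lef1* (-1.55) fell, and *Otx2* was not called (-0.31).

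**Figure D3:**
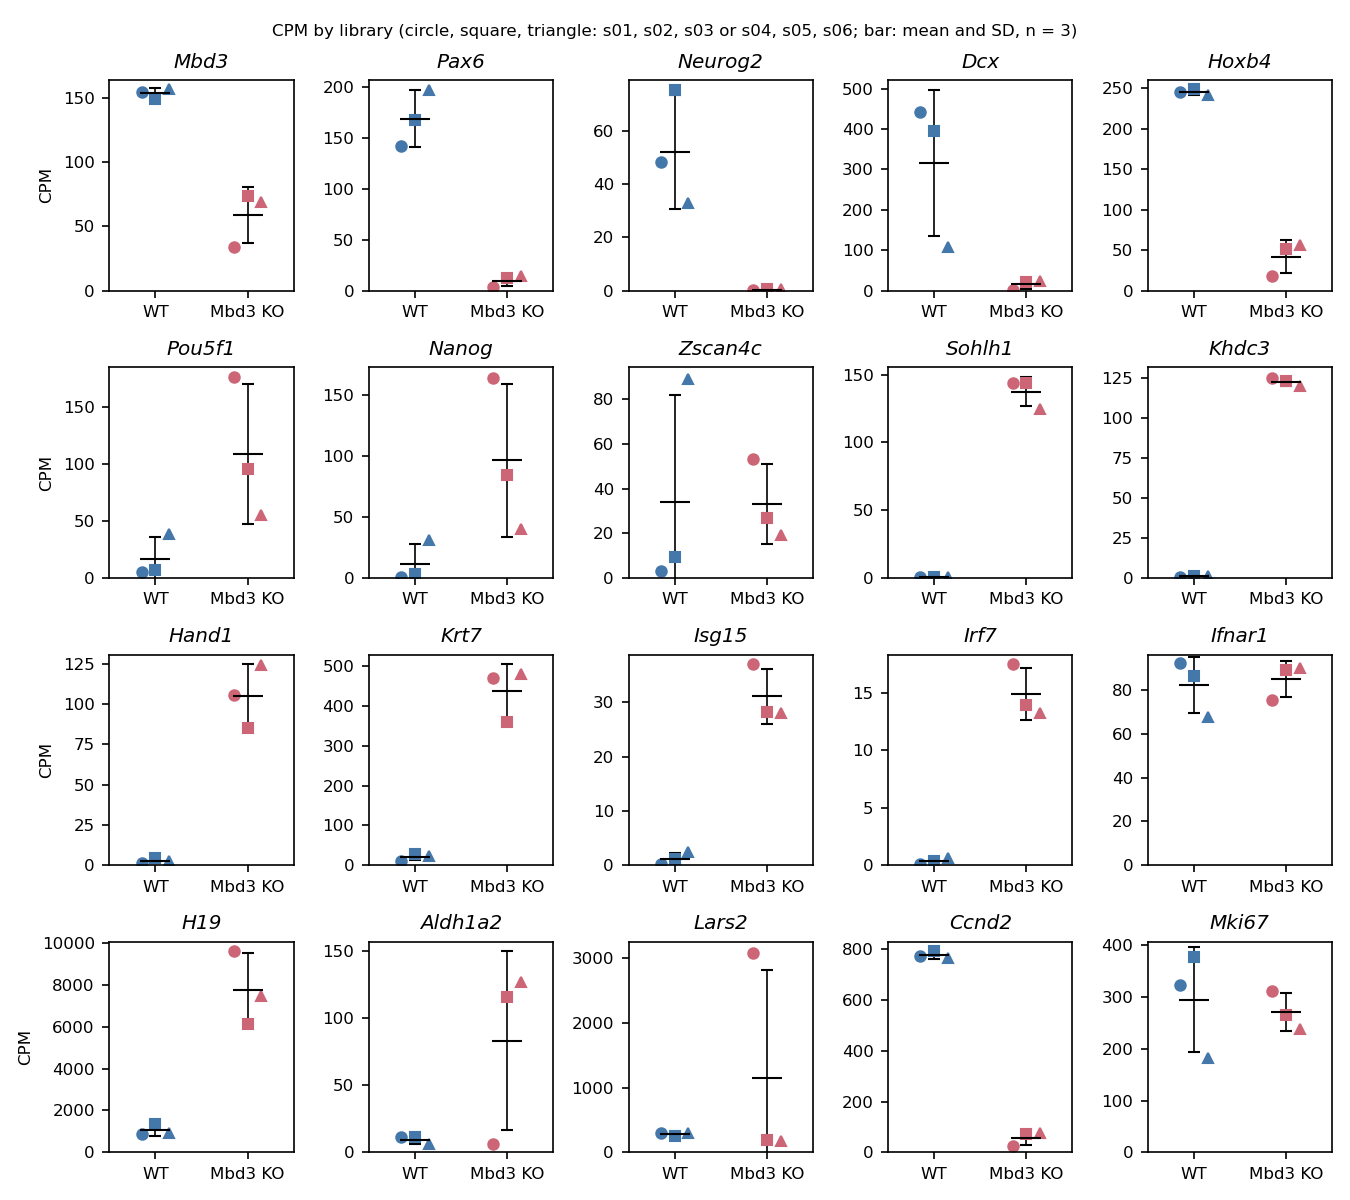
CPM of 20 genes in each library (vertical axes from 0, own scale for each gene); blue is WT and red *Mbd3* KO, circles, squares and triangles are s01, s02 and s03 or s04, s05 and s06, and the bar is the mean with its SD (n = 3). *Nanog* and *Zscan4c* are high in WT library s03 (triangle) beside s01 and s02, *Aldh1a2* is low and *Lars2* high in KO library s04 (circle), and the groups are far apart for *Sohlh1*, *Krt7* and *Irf7*.

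Genes of the 2-cell embryo, which a small fraction of ESCs transcribe at any time, were not called in any of the 10 tested (median -0.29). *Zscan4c* had 2.98, 9.24 and 89.2 CPM in WT and 53.1, 26.7 and 19 CPM in *Mbd3* KO (-0.04, SE 1.07). The s03 value lay above every KO library, and those of s01 and s02 below. Without s03 the median of the list was 2.1, and 0 were called, while without s01 1 was called lower. In the full comparison 0 of the 10 had an unadjusted p under 0.05, and DESeq2 called 0 higher and 0 lower. The *Zscan4* genes are near-identical copies, so reads may be shared among them.

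Germline genes included the largest rise of all genes whose mean log2 CPM was 1 or more, that of *Sohlh1*. Of 25 germline and meiosis genes 20 were called higher and none lower (median 1.95). *Sohlh1*, a bHLH factor of early spermatogonia and oocytes, had 0.376, 0.66 and 0.438 CPM in WT and 144, 144 and 125 CPM in *Mbd3* KO (8.12, SE 0.408, adjusted p = 1.21e-10). Its partner gene *Sohlh2* had 0.698, 2.42 and 11.3 CPM in WT and 121, 116 and 122 CPM in *Mbd3* KO (4.61, SE 0.866, adjusted p = 0.000166). Both were at nearly the same level in the 3 KO libraries, whereas WT library s03 held more *Sohlh2* than s01 and s02. *Dazl*, an RNA-binding protein of germ cells, had 0.751, 1.27 and 10.6 CPM in WT and 47.1, 39.5 and 29.9 CPM in *Mbd3* KO (3.18, SE 0.846, adjusted p = 0.00332). *Taf7l* (3.63), *Tex19.1* (3.37), *Tex11* (3.34) and *Sycp2* (3.33) also rose, while *Sycp3* (1.13) and *Mael* (1.15) were not called. Without s03 the median was 3.57, and 25 were called higher, and the count was 16 without s01, without s02 or without s04.

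Of 18 genes of oocytes and maternal effect only 9 passed the filter, 8 of them called higher and 1, *Gdf9*, lower, with a median of 2.62 (4.76 without s03). They summed to between 4.21 and 16.2 CPM in WT and between 150 and 202 CPM in *Mbd3* KO. The filter looks at all lines, so members low in WT may pass only through lines where they are higher. This raises the share called higher and the median, which are therefore no test of the list. The oocyte regulator *Figla* and the zona gene *Zp2* had at most 3 reads in any of the 6 libraries. *Khdc3*, a component of the subcortical maternal complex, had 0.725, 0.908 and 1.27 CPM in WT and 125, 123 and 119.8 CPM in *Mbd3* KO (6.97, SE 0.542, adjusted p = 2.47e-08), and a gene model on the same strand, Gm20509, overlaps it. Other members of that complex also rose, *Ooep* by 2.62, *Tle6* by 2.52 and *Padi6* by 2.31, and *Nlrp5*, another member, was filtered out with at most 15 reads in any library.

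Most genes of the trophoblast rose. Of 24 genes of the placental lineage 21 were called higher and 1 lower (median 3.61). Among factors of trophoblast stem cells, *Cdx2* had 1.29, 1.35 and 1.58 CPM in WT and 3.92, 5.95 and 5.92 CPM in *Mbd3* KO (1.9, SE 0.548, adjusted p = 0.00585), *Eomes* rose by 4.22, *Elf5* by 3.63 and *Tfap2c* by 3.78. *Hand1*, which drives giant cell formation, had 1.32, 4.32 and 2.53 CPM in WT and 106, 85.5 and 125 CPM in *Mbd3* KO (5.28, SE 0.798, adjusted p = 1.96e-05). The largest rises of the list were those of placental hormone genes. The placental hormone gene *Prl3d1* had 0.0268, 0.413 and 0.17 CPM in WT and 15.8, 25.8 and 36.6 CPM in *Mbd3* KO (7.0, SE 0.511, adjusted p = 7.6e-09). *Prl2c2*, one of several near-identical proliferin copies among which reads can be split, had 0.215, 1.02 and 0.268 CPM and 69.8, 63.5 and 74.9 CPM (7.13, SE 0.595, adjusted p = 4.68e-08). *Gcm1* and *Plac1* rose by 4.16 and 4.11, *Tpbpa* of the spongiotrophoblast was not called (1.13), and *Tfap2a*, which the neural crest also expresses, fell by 3.32.

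Epithelial genes rose as well. Of 16 keratin and junction genes 15 were called higher and none lower (median 2.4). *Krt7* had 10.9, 27.6 and 22.6 CPM in WT and 472, 359 and 481 CPM in *Mbd3* KO (4.42, SE 0.693, adjusted p = 2.77e-05), and *Cdh1*, the E-cadherin gene, had 56.2, 138 and 107 CPM and 819.7, 574 and 535 CPM (2.68, SE 0.39, adjusted p = 1.32e-05). *Cdh2*, the N-cadherin gene of the neural tube, fell by 3.11, and the epithelial splicing regulators *Esrp1* and *Esrp2* rose by 2.33 and 2.51. Of 18 mesenchymal genes (median -0.72) 8 were called lower, with the largest fall for the repressor of epithelial genes *Zeb2* (123, 134 and 61.1 CPM in WT, 1.94, 4.69 and 5.24 CPM in *Mbd3* KO, -4.73, SE 0.53, adjusted p = 9.43e-07). *Col3a1* fell by 3.34, *Col1a1* was not called (-0.65), and *Tagln* was the only one called higher (1.58).

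Markers of other cell types that such cultures can hold were mixed. Of 23 genes of primitive and visceral endoderm (median 1.46) 9 were called higher and none lower (1 lower without s01 and 2 without s06), but the defining factors *Gata4* (0.94), *Gata6* (1.08) and *Sox17* (-1.09) were not called. The fibrinogen gene *Fga* had the largest rise, from 0.0805, 0.33 and 0.73 CPM in WT to 16, 16.9 and 20.9 CPM in *Mbd3* KO (5.51, SE 0.978, adjusted p = 9.77e-05), and the secreted yolk sac genes *Afp* and *Ttr* were not called (1.33 and 2.89). Of 17 parietal endoderm and basement membrane genes (median 1.5) 8 were called higher and 1, *Pth1r*, lower. With 1 library left out between 4 and 7 were called higher. *Thbd* rose by 3.32 and *Nid1* by 3.35. *Lama1* (-0.03), *Sparc* (0.72) and *Col4a1* (1.497, adjusted p = 0.0991) were not called, and the groups overlapped in *Lama1* and *Sparc*. The log2 fold change of *Lama1* was -0.205 without s03 and 0.379 without s04. Of 14 mesoderm genes (median 0.81) 6 were called higher (3 without s03 and s04), *Foxf1* with 1.37, 2.34 and 1.17 CPM in WT and 21.2, 39.4 and 40.3 CPM in *Mbd3* KO (4.38) and *T*, the Brachyury gene, with 0.188, 0.248 and 0.195 CPM and 0.0858, 0.686 and 1.22 CPM and overlapping groups (1.67, a call lost without s06, adjusted p = 0.143), while *Kdr*, the FLK1 gene, was not called (-0.26). Of 13 blood and immune cell markers 7 passed the filter (median 2.08) and 6 were called higher. All 7 together summed to between 8.59 and 12.7 CPM in WT and between 59.9 and 78.6 CPM in *Mbd3* KO. Here too, markers low in WT may pass the filter only through lines where they are higher, which raises the share called higher. The defining leukocyte gene *Ptprc* had 1 read in all 6 libraries together and *Adgre1* of macrophages had 2. *Csf1r*, with 0.0537, 0.578 and 0.365 CPM in WT and 26.2, 17.1 and 23.5 CPM in *Mbd3* KO (6.05, SE 0.821, adjusted p = 6.74e-06), had the largest rise of these, and trophoblast also expresses it. *Spi1*, a further marker of blood and immune cells, was called higher at low levels (1.82, SE 0.589, adjusted p = 0.0103). It had 0.0537, 0.0825 and 0.146 CPM in WT and 0.286, 0.443 and 0.291 CPM in *Mbd3* KO. The part of such cells in the immune genes below was not tested.

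**Figure D4:**
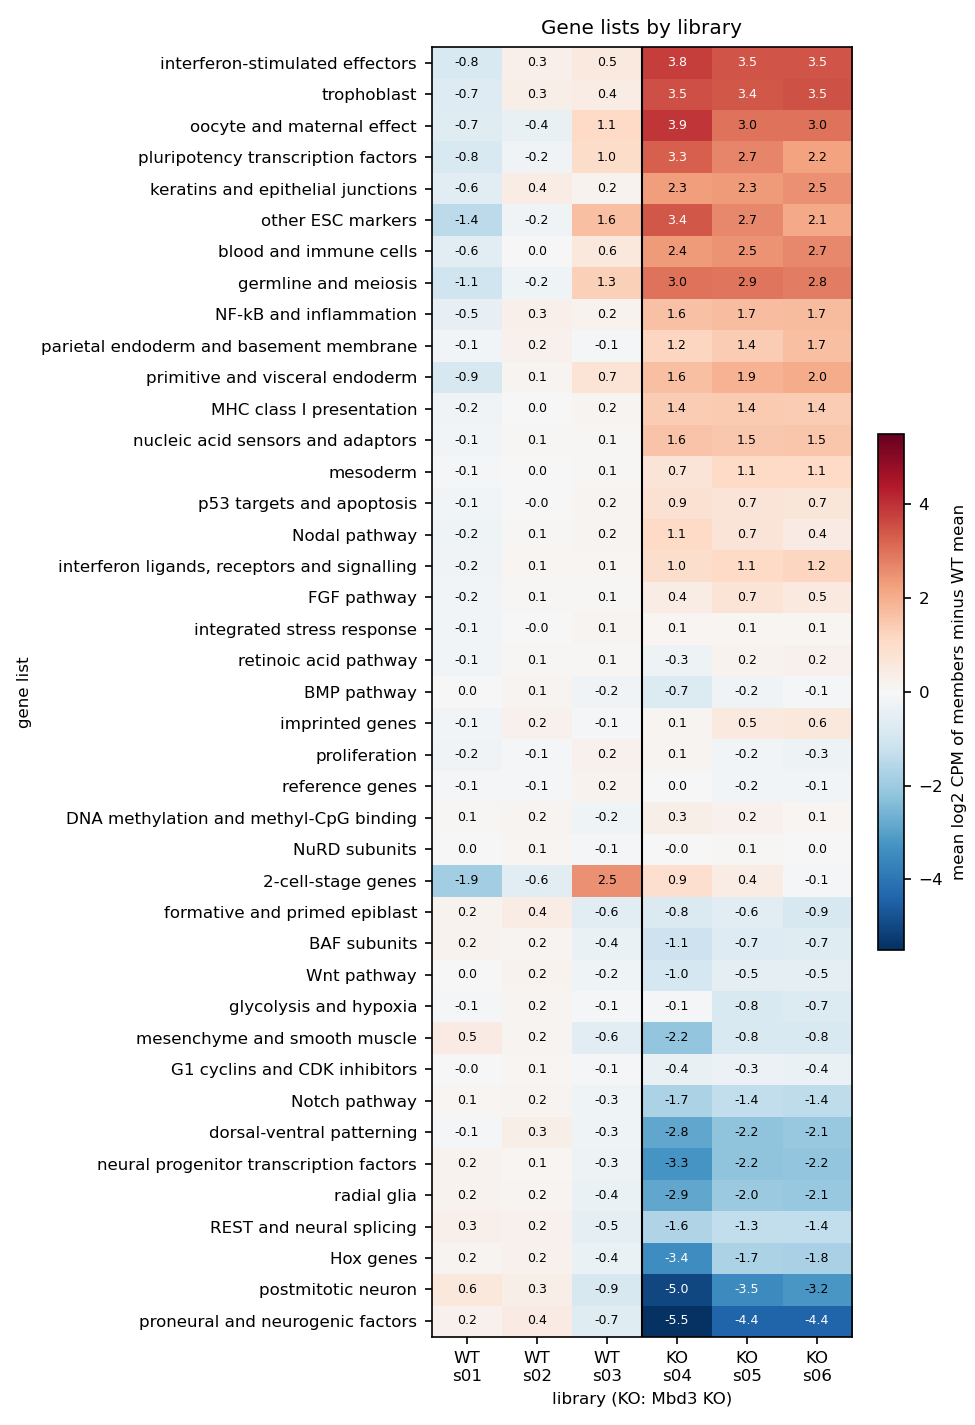
Mean log2 CPM of the tested members of each gene list in each library, minus the mean of the 3 WT libraries (colour and printed value; rows in the order of the list medians, columns WT s01 to s03 and *Mbd3* KO s04 to s06). WT library s03 reads 2.51 for the 2-cell-stage genes and 1.65 for other ESC markers, and KO library s04 reads -3.42 for Hox genes where s05 and s06 read -1.72 and -1.78.

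Imprinted genes, which are transcribed from one parental allele, moved in both directions. Of 30 tested 9 were called higher and 8 lower (median log2 fold change -0.05). Several of the rises were genes with known roles in placenta. *H19*, a noncoding RNA, had 868, 1349 and 937 CPM in WT and 9603, 6106 and 7458 CPM in *Mbd3* KO (2.88, SE 0.417, adjusted p = 1.26e-05). Its neighbour *Igf2*, a growth factor gene, had 509, 498 and 265 CPM and 3075, 2098 and 2819 CPM (2.65, SE 0.529, adjusted p = 0.000292). The KO libraries lay far above every WT library in both. On the same chromosome 7, *Phlda2* and *Slc22a18* rose by 4.43 and 4.01. *Grb10* was lower in every KO library, with 707, 423 and 355 CPM in WT and 55.8, 158 and 231 CPM in *Mbd3* KO, but its spread was wide and it was not called (-1.74, SE 1.3, adjusted p = 0.256). *Peg10*, on chromosome 6, had 366, 832 and 598 CPM and 5418, 3783 and 3941 CPM (2.87, SE 0.406, adjusted p = 9.9e-06). The lower calls included *Meg3*, a noncoding RNA with the largest fall of the list (3.03, 37 and 9.62 CPM in WT, 1.69, 2.04 and 1.0 CPM in *Mbd3* KO, -3.37, a call lost without s02, adjusted p = 0.129), and *Ndn* (-1.63), *Magel2* (-1.29) and *Nnat* (-1.21), which neurons express.

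The interferon response rests on a chain from nucleic acid sensors through interferon and its receptors to STAT and IRF factors, which induce antiviral effector genes. Of 37 effectors tested 35 were called higher and none lower (median 3.69), and *Ifit2* (0.63) and *Cxcl10* (1.73) were not called. Promoter sequences are shown because many effectors share a response element, written here as the letters GAAA NN GAAA or, on the other strand, TTTC NN TTTC. The following 40-base windows before the start site of 4 effectors called higher come from RefSeq (GRCm38.p6), are read 5′ to 3′ on the gene's strand, and have all letters that belong to a match in capitals, also where matches overlap:
*Isg15*, chr4:156200872-156200911 (minus strand): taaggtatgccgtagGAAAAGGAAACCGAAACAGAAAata
*Ifit1*, chr19:34640770-34640809 (plus strand): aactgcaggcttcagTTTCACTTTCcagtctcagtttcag
*Rsad2*, chr12:26456548-26456587 (minus strand): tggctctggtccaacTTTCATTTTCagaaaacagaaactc
*Bst2*, chr8:71537578-71537617 (minus strand): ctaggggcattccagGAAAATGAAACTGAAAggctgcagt
Promoters from 250 bases before to 50 after the start were at hand for 28 of the 37 effectors tested, and 13 of these hold the letters, as do 3.99% of the 27025 genes of the whole table. Because under 80% of the effectors had a promoter, the count is void as a check of the list, and a match is not a binding site.

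These effectors were low in WT and higher in each KO library. *Isg15*, a ubiquitin-like protein, had 0.295, 1.05 and 2.34 CPM in WT and 36.9, 28.3 and 28 CPM in *Mbd3* KO (4.63, SE 0.741, adjusted p = 3.48e-05). *Ifit1*, which binds viral RNA, had 0.349, 2.53 and 1.44 CPM and 27.1, 26.9 and 27.3 CPM (4.24, SE 0.71, adjusted p = 5.62e-05). *Rsad2*, the viperin gene, had 0.322, 0.99 and 0.852 CPM and 40.9, 28.9 and 25.4 CPM (5.45, SE 0.729, adjusted p = 5.78e-06). *Bst2*, the tetherin gene, had 9.58, 18.5 and 34.1 CPM and 198, 135 and 138 CPM (2.92, SE 0.571, adjusted p = 0.000243). The lowest KO library was above the highest WT library in each. The largest rise of the list was that of *Oas2*, a synthetase activated by double-stranded RNA (0.0805, 0.11 and 0.17 CPM in WT, 8.46, 6.82 and 6.72 CPM in *Mbd3* KO, 5.87). The Oas, Ifit and Gbp genes have close paralogues, among which reads can be split. Without s03 and s04 the median was 3.6 and again 35 were called higher.

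The interferon ligands listed did not pass the filter on low counts. *Ifnb1*, *Ifna2*, *Ifna4*, *Ifne* and *Ifnl3* had 0 reads in each of the 6 libraries, which allows at most 3 reads or 0.0858 CPM per library, and *Ifng* and *Ifnl2* had 2 reads and 1 read in all. Of 28 ligands, receptors and signalling genes 21 were tested, 9 called higher and 1 lower (median log2 fold change 0.62). The receptor gene *Ifnar1* had 92.3, 86.4 and 67.8 CPM in WT and 75.6, 89.1 and 90.4 CPM in *Mbd3* KO, with overlapping groups (0.05, SE 0.116), and *Ifnar2*, *Jak1* and *Tyk2* were not called (0.53, 0.60 and 0.71). Among the factors, *Irf7* had 0.107, 0.385 and 0.584 CPM in WT and 17.4, 13.9 and 13.2 CPM in *Mbd3* KO (5.33, SE 0.705, adjusted p = 3.36e-06). *Irf9* had 13.9, 14.6 and 14 CPM in WT and 38, 42.8 and 45.4 CPM in *Mbd3* KO (1.57, SE 0.14, adjusted p = 9.38e-08). *Irf1* rose by 2.44, *Irf3* and *Stat2* were not called (0.10 and 0.62), and *Irf2*, which competes with IRF1, fell by 1.22.

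Of 16 sensors and adaptors 8 were called higher and none lower (median log2 fold change 1.32). The RNA sensor genes *Ddx58* (7.43, 13.4 and 8.62 CPM in WT, 64.9, 50.6 and 51.8 CPM in *Mbd3* KO, 2.51, SE 0.296, adjusted p = 1.61e-06) and *Ifih1* (2.85) rose, as did *Zbp1* (4.5) and the kinase gene *Ikbke* (4.01). On the DNA-sensing arm, *Sting1* had 1.4, 1.29 and 1.39 CPM in WT and 14, 11.2 and 11.3 CPM in *Mbd3* KO (3.16, SE 0.277, adjusted p = 8e-08), while *Cgas*, which makes its ligand, was not called (-0.31). The adaptor *Mavs* and the kinase *Tbk1* were not called (0.18 and 0.23). Of 12 genes of antigen presentation by MHC class I (median 1.35) 9 were called higher and none lower; *Tapbp* rose by 2.14, *Psmb8* of the immunoproteasome by 2.05, and *B2m* reached 0.89, under the threshold. Of 15 NF-kB and inflammation genes (median 1.77) 12 were called higher, with *C3* at 2.23, 9.57 and 6.77 CPM in WT and 47.6, 69.3 and 71.4 CPM in *Mbd3* KO (3.34, SE 0.779, adjusted p = 0.00117). *Tnfaip3*, a brake on NF-kB, was the only one called lower (-1.82), *Il1b* had no read and *Il6* 2 reads in all.

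Chromatin and splicing regulators exchange subunits or paralogues during neurogenesis. Of 28 BAF remodelling subunits (median -0.61) 7 were called lower, among them the neuronal subunits *Actl6b* (14.2, 9.02 and 3.94 CPM in WT, 0.0572, 0.42 and 0.503 CPM in *Mbd3* KO, -4.73, SE 0.693, adjusted p = 1.47e-05), *Dpf1* (-1.56) and *Ss18l1* (-1.43), while their counterparts *Actl6a* (-0.64), *Dpf2* (-0.44) and *Ss18* (-0.29) were not called. *Smarcd2* was the only one called higher (1.31). Of the BAF list 28.6% were called in either direction, under the 33.8% of all genes tested. Of 15 genes of REST and neural splicing 8 were called lower and 2 higher (median log2 fold change -2.16). *Rest*, the repressor of neuronal genes, had 46.7, 47.6 and 43.5 CPM in WT and 141, 103 and 94.3 CPM in *Mbd3* KO (1.29, SE 0.192, adjusted p = 1.61e-05), and the neuronal splicing factor *Srrm4* fell by 4.47. *Ptbp2*, the neural form of the splicing repressor PTBP, had 333, 319 and 304 CPM and 48.5, 57.7 and 56.7 CPM (-2.55, SE 0.202, adjusted p = 2.87e-08), and *Ptbp1* was not called (0.44). Among 17 genes of DNA methylation and methyl-CpG binding 3 were called higher and 1 lower (median -0.14), and *Dnmt3l* had 0.671, 1.18 and 4.26 CPM in WT and 119.8, 28.5 and 17.3 CPM in *Mbd3* KO (4.73, SE 0.987, adjusted p = 0.000448). It was highest in s04. *Dnmt3b* and *Zbtb38* also rose, and *Dnmt1*, *Dnmt3a* and the *Tet* genes were not called. Of the DNA methylation list 23.5% were called in either direction, again under the 33.8% of all genes tested.

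Of 18 proliferation genes (median -0.1) 0 were called higher and 0 lower by edgeR (5 at an unadjusted p under 0.05, and 0 higher and 0 lower by DESeq2, while edgeR called 1 higher without s03), with *Mki67* at 323, 377 and 181.4 CPM in WT and 311, 264 and 237 CPM in *Mbd3* KO (-0.12, SE 0.248). Of 14 regulators of G1 2 were called higher and 5 lower (median log2 fold change -0.73). *Ccnd2*, a cyclin of neural progenitors, had 775, 792 and 766 CPM in WT and 25.4, 72.3 and 78 CPM in *Mbd3* KO (-3.73, SE 0.391, adjusted p = 4.75e-07), and *Ccnd1* fell by 1.22. The CDK inhibitor genes *Cdkn2a* and *Cdkn2b* rose by 2.02 and 2.45, while *Cdkn1b* and *Cdkn2c* fell by 1.37 and 1.58. Of 15 p53 targets and apoptosis genes (median 0.72) 5 were called higher (3 without s04) and none lower, such as *Phlda3* (1.44) and *Ccng1* (1.01), and *Trp53* was not called (0.16). Of 25 genes of glycolysis and hypoxia 9 were called lower and 2 higher (median log2 fold change -0.68). Of the lower calls 5 lay just past the threshold, from -1.09 for *Egln1* to -1.01 for *Ldha*, other scalings called between 4 and 6 lower, without s05 or s06 there were 4, without s04 12 and without s03 and s04 13. *Ldha* had 1179, 1103 and 1522 CPM in WT and 895, 473 and 524 CPM in *Mbd3* KO, where s04 lay nearer to WT than s05 and s06. The call of *Ldha* was lost without s03, s05 or s06 (adjusted p = 0.052, 0.0677 and 0.0571, edgeR). Of 14 stress response genes (median 0.06) 2 rose, *Atf3* (2.06) and *Sesn2* (1.54), and 2 fell, *Psat1* (-1.15) and *Phgdh* (-1.09) of serine synthesis. Both falls came to under 1 log2 unit without s03 (-0.90 and -0.90), and that of *Phgdh* also without s04 (-0.80). *Ddit3* and *Asns* were not called. Called in either direction were 33.3% of the p53 list and 28.6% of the stress response list, where 33.8% of all genes tested were called. Of 15 reference genes (median -0.11) 1, *Pgk1* (-1.06), was called, and *Actb* had a log2 fold change of 0.21.

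Outside the lists, *Spib*, an ETS factor known from B cells, had 0.215, 0.275 and 0.511 CPM in WT and 24.6, 25.1 and 28.3 CPM in *Mbd3* KO (6.25, SE 0.312, adjusted p = 1.21e-10). *Aldh3b2* rose by 5.55 and *Slc6a2*, the noradrenaline transporter gene, by 5.51. *Sox10*, a neural crest factor, rose by 5.83, with 0.322, 0.303 and 0.779 CPM in WT and 67.5, 7.08 and 7.96 CPM in *Mbd3* KO; the s04 value was more than 8 times that of the other KO libraries. *Vxn* fell by 7.51. *Pou3f4* (43.5, 38.1 and 31 CPM in WT, 0.172, 0.243 and 0.423 CPM in *Mbd3* KO), *Prdm13* and *Sp8*, all transcription factors of the neural tube, fell by 7.05, 6.99 and 6.94. Among called genes with the most reads, the tubulin genes *Tuba1a* (4523, 3852 and 3917 CPM in WT, 871, 860.5 and 899 CPM in *Mbd3* KO, -2.22), *Tuba1b* (-1.1), *Tuba1c* (-1.29) and *Tubb5* (-1.05) fell, of which the alpha tubulins are close copies of each other. With scaling by library size alone *Tuba1b* and *Tubb5* fell short of 1 log2 unit (-0.96 and -0.91). *Scd2*, a fatty acid desaturase gene, fell by 2.10. *Myh9*, the nonmuscle myosin gene, rose from 167, 238 and 146 CPM to 1226, 1035 and 1088 CPM (2.6, SE 0.327, adjusted p = 2.91e-06), *Ctsb* by 2.14 and *Ctnna1* by 1.02.

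Among 12923 genes whose mean log2 CPM was 1 or more, the median range over the 3 libraries was 0.469 log2 units in WT and 0.278 in *Mbd3* KO, and 13.7% and 9.53% of genes had a range above 1. Genes with a wide range among the KO libraries and a range under 1 log2 unit in WT often set s04 against s05 and s06. *Lars2*, with 293, 250.2 and 304 CPM in WT and 3068, 188 and 171 CPM in *Mbd3* KO, was called higher (2.02, adjusted p = 0.0218) through s04 alone. Without s04 its log2 fold change was -0.66 (adjusted p = 0.126, edgeR). *Ptn* had 33.8, 29.5 and 22.8 CPM and 0.629, 10.6 and 10.2 CPM, *Esm1* 5.23, 6.41 and 4.19 CPM and 0.0858, 3.32 and 2.38 CPM, and *Angpt1* 5.64, 5.34 and 3.29 CPM and 0.172, 8.65 and 8.46 CPM, each lowest in s04. Chromosome 1 differed between the KO libraries as a whole. Over its 729 genes the median deviation from the other KO libraries was -0.375 in s04, 0.093 in s05 and 0.288 in s06 on the log2 scale, and the other autosomes and the X chromosome lay between -0.058 and 0.084 in the 6 libraries. The median log2 fold change of chromosome 1 was -0.23 with s04 and -0.17 without it. Genes named here that lie on that chromosome include *Pax3*, *Vxn*, *Map2*, *Col3a1*, *Lefty1*, *Lefty2*, *Atf3*, *Phlda3*, *Sox17* and *Mael*. The part of this deviation in the changes of genes on chromosome 1 was not tested.

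**Figure D5:**
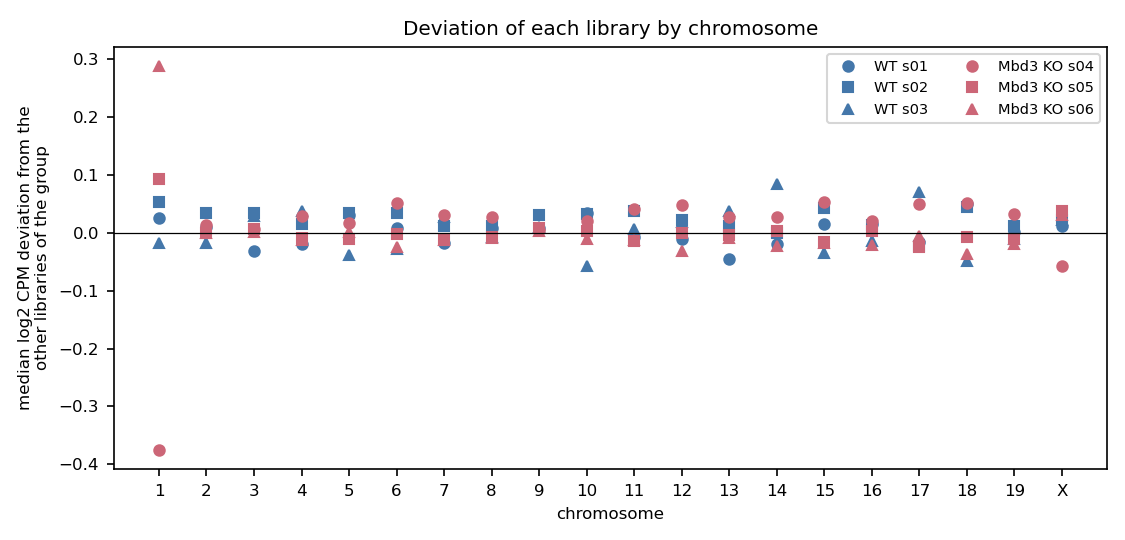
Median deviation of log2 CPM of each library from the mean of the other 2 libraries of its group (vertical) for the autosomes and the X chromosome (horizontal); blue is WT and red *Mbd3* KO. Chromosome 1 shows -0.375 for s04 and 0.288 for s06, and on the other chromosomes every value lies between -0.058 and 0.084.

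Several calls named above, besides those already given, rested on 1 library at a time. The adjusted p of *Slc17a6* was 0.0969 without s01, that of *Nnat* 0.0555 without s02 and 0.0593 without s04, that of *Fgf5* 0.053 without s05, and that of *Foxa2* 0.107, 0.0531 and 0.0719 without s01, s05 and s06. *Lars2* reached 0.055 without s01 and 0.0641 without s02. *Axin2*, *Ccng1*, *Ctnna1*, *Egln1*, *Pgk1*, *Pth1r* and *Zbtb38* kept an adjusted p under 0.05 but came to under 1 log2 unit in size without at least 1 library. With scaling by library size alone *Axin2*, *Egln1*, *Ldha*, *Pgk1* and *Phgdh* also came to under 1 log2 unit in size.

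The line in which MBD3a is expressed from a construct in *Mbd3* KO cells gives levels to set beside these, with no test. Those 3 libraries held 134 ± 6.04 CPM of *Pax6*, 43.8 ± 5.68 CPM of *Neurog2* and 233 ± 69.1 CPM of *Dcx* (mean ± SD, n = 3). *Sohlh1* was at 0.541 ± 0.0667 CPM, *Khdc3* at 0.979 ± 0.755 CPM, *Hand1* at 3.94 ± 3.53 CPM and *Krt7* at 19.3 ± 14.3 CPM. Interferon effectors were at 1.07 ± 1.02 CPM for *Isg15* and 1.01 ± 0.461 CPM for *Rsad2*, and *H19* was at 1038 ± 90.4 CPM. Each of these means lay nearer to the WT mean than to the *Mbd3* KO mean. *Nanog* was at 10.3 ± 12.9 CPM in those libraries.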

How the data were processed

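RNA of ESC-derived NPCs was measured by single-end RNA-seq in 24 libraries of 8 lines, 3 per line, of which 6 enter the comparison of *Mbd3* KO with WT. The deposited values are raw read counts per gene. To make them the authors trimmed reads with Trim Galore 0.6.6, aligned them with STAR to NCBIM37 (mm9) and counted them per GENCODE gene with QuasR, without pooling replicates. The strand setting of the counting is not given in the sources used here. A total of 0 columns of per-sample values were left unused.

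All 24 libraries were fitted with edgeR 4.0.16 (R 4.3.3), with TMM scaling, 1 coefficient per line and the quasi-likelihood F test, so the spread is estimated over all lines. Genes were tested where they passed filterByExpr (minimum count 10, minimum total 15). Calls needed a log2 fold change above 1 in size and a Benjamini-Hochberg adjusted p under 0.05. CPM were scaled by TMM, and log2 CPM used a prior count of 1. The smallest p of an exact permutation test of 3 against 3 libraries is 0.1, so no such test was used for single genes. Depth was between 34446766 and 42049423 counted reads per library. The script was tested on simulated counts.

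The comparison and the 41 gene lists (830 entries, 779 tested, 40 filtered out for low counts, 11 not analysed here) were chosen with earlier results of these data known. Any list member could be named. Outside the lists the rule took the 12 called genes with the largest rise and the 12 with the largest fall, averaging 1 log2 CPM or more whose groups were separate, the 8 called genes with the highest level in each direction, and the 8 with the widest range among KO libraries where WT ranged under 1. Alternatives were other sets of libraries, scalings (RLE, upper quartile, library size only), filters, thresholds and tests (likelihood ratio, glmTreat, DESeq2 1.42.0), and each library left out in turn. A legacy form of the quasi-likelihood test and a fit without s03 and s04 were added after seeing the data. Columns of ChIP-seq samples were not analysed here, and a few list members, though counted in their lists, are not reported here.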

Additional observations from a re-analysis of the deposited data

How the results depend on the processing

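All values below are of *Mbd3* KO against WT. Among the alternatives run for the whole comparison, the counts of genes called higher and lower stayed within 1.5 times 3248 and 2361 except with other thresholds. glmTreat, which tests against a log2 fold change of 1, called 2069 higher and 1400 lower, an adjusted p with no fold change threshold gave 4889 and 5101, and an unadjusted p gave 5183 and 5453. With 1 library left out the counts ran from 2957 to 3342 and from 2149 to 2504, and without both s03 and s04 they were 3266 and 2311. Scaling by library size alone moved the median of all genes from -0.03 to 0.11 and called 3568 higher and 2002 lower. It also moved the medians of the NuRD list to -0.10, of the interferon ligand, receptor and signalling list to 0.76 and of the FGF list to 0.66. Without s03 and s04 the medians were -2.32 for neural progenitor factors, 1.00 for mesoderm, 2.68 for blood and immune cells, 3.49 for germline and 3.92 for oocyte genes, and with only the 6 libraries in the fit the mesoderm median was 0.61. With 1 library left out, medians ran from -0.38 to -0.10 for NuRD, 1.81 to 4.38 for other ESC markers, 0.71 to 1.03 for mesoderm, 1.68 to 3.57 for germline and 2.24 to 4.76 for oocyte genes. The median of the 2-cell-stage genes changed sign, from -0.29 to 2.10 without s03 and 1.56 without s03 and s04, and was -0.83 without s04. Medians of the remaining lists also moved, and are not given here for each alternative. Some genes not called, and *Lars2*, changed sign: *Chd3* was 0.05 and *Mki67* 0.02 with library size only, *Kdr* 0.01, *Lars2* -0.60 and *Zscan4c* 1.90 without s03 and s04, and *Zscan4c* 0.02 with RLE scaling, 0.06 with library size only and 0.03 with DESeq2. With 1 library left out the ranges were -0.12 to 0.85 for *Angpt1*, -0.46 to 0.13 for *Chd3*, -0.05 to 0.14 for *Cyp26a1*, -0.07 to 0.14 for *Ifnar1*, -0.63 to 0.13 for *Kdr*, -0.66 to 2.53 for *Lars2*, -0.37 to 0.10 for *Mki67*, -0.42 to 0.63 for *Neurog3* and -0.58 to 2.43 for *Zscan4c*. The causes were not tested. Genes at fewer than 3 reads in a library, such as interferon ligands, are not resolved at this depth. No paired analysis was possible because the columns of counts carry no replicate numbers.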
